A study of Homo sapiens with 6 samples.

Results

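Alcohol dehydrogenases, aldehyde dehydrogenases and aldo-keto reductases were read out of bulk RNA sequencing of HepG2 cells in which DGUOK was silenced. HepG2 is an established human line derived from a hepatocellular carcinoma, and DGUOK encodes deoxyguanosine kinase, the mitochondrial enzyme that salvages purine deoxynucleosides. Members were the protein-coding genes whose symbols begin with ADH, ALDH or AKR followed by a family number. They were 37 of 34036 genes listed, namely 6 ADH, 19 ALDH and 12 AKR genes, and 28 of them had enough counts to be tested.

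Control cells (siCON, n = 3) had received a non-targeting siRNA, and knockdown cells (siDGk, n = 3) a pool of siRNAs against DGUOK. All 6 cultures were transfected with Lipofectamine RNAiMAX and collected at 48 h, as independent biological replicates. Titles and library names gave the groups, since the treatment label names the control siRNA for every sample. Library totals were 19065684, 18915508 and 10527216 counts for siCON and 18613138, 15978314 and 21334876 counts for siDGk replicates 1, 2 and 3.

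The siDGk replicate 1 library stood apart. It held at least 1 count for 21057 genes, against 16205 to 17583 in the other libraries. In it 3574 genes had from 1 to 3 counts, against 819 to 1577 elsewhere. Very short T cell receptor J segments made up 27.1% of its length-normalised abundance (TPM), against 0.246% in siDGk replicate 2 and 0% in the remaining libraries. Levels are therefore given as CPM (a gene's share of all counts, scaled by edgeR's TMM method), and comparisons between genes as CPM per kb of exon. For the members as a group, the number of calls without this library is given beside that with it.

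The 3 families handle alcohols and carbonyls at successive steps. Alcohol dehydrogenases pass electrons from alcohols to NAD+ and yield aldehydes or ketones, aldehyde dehydrogenases oxidise aldehydes to acids, and many aldo-keto reductases run the other way and reduce aldehydes and ketones to alcohols with NADPH. In hepatocytes they clear ethanol and acetaldehyde, make retinoic acid, break down amino acids, detoxify lipid aldehydes and reduce steroids and bile acid precursors.

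DGUOK was 54.4, 53.1 and 48.2 CPM in siCON and 9.08, 10.5 and 6.72 CPM in siDGk replicates 1 to 3. The groups were far apart, in the direction that the titles give. The log2 fold change of siDGk over siCON was −2.57 (SE 0.19, edgeR's test, adjusted p = 1.64e-08).

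Most tested members had a negative log2 fold change after DGUOK silencing, and fewer were called. Calls required an adjusted p below 0.05 and a log2 fold change beyond 0.5 in either direction. By edgeR's quasi-likelihood test 10 of the 28 tested members were called, where 14.1% of all 14476 genes tested were. Lower calls numbered 9 (6.68% of all genes tested were called lower) and higher calls 1 (7.42% of all genes tested). The members that fell were ADH6, AKR1D1, ALDH6A1, ALDH1A1, ALDH1B1, ALDH9A1, AKR1C3, ALDH16A1 and ALDH18A1, and AKR1B1 rose. The adjusted p of edgeR alone was under 0.05 for 14 members (19.7% of all genes tested), the others being ALDH7A1, ALDH2, AKR1C1 and ADH5, all with negative log2 fold changes. In bulk RNA, fewer cells that express a gene and less RNA per cell cannot be told apart.

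All siDGk libraries lay below all siCON libraries for 16 tested members (17.3% of all genes tested), and above them for 2 (18.7% of all genes tested). The median log2 fold change was −0.51 over the tested members and 0.02 over all genes tested, and 23 of the 28 values were negative (48.5% of all genes tested). By family the median was −0.60 for 3 tested ADH, −0.60 for 16 ALDH and −0.35 for 9 AKR genes. Without siDGk replicate 1, 9 of 29 tested members were called lower and 1 higher by edgeR's test. Of all 15243 genes tested in that fit, 988 were called lower and 894 higher. Of the members' calls, 9 were shared with the fit on all 6 libraries.

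**Figure D1:**
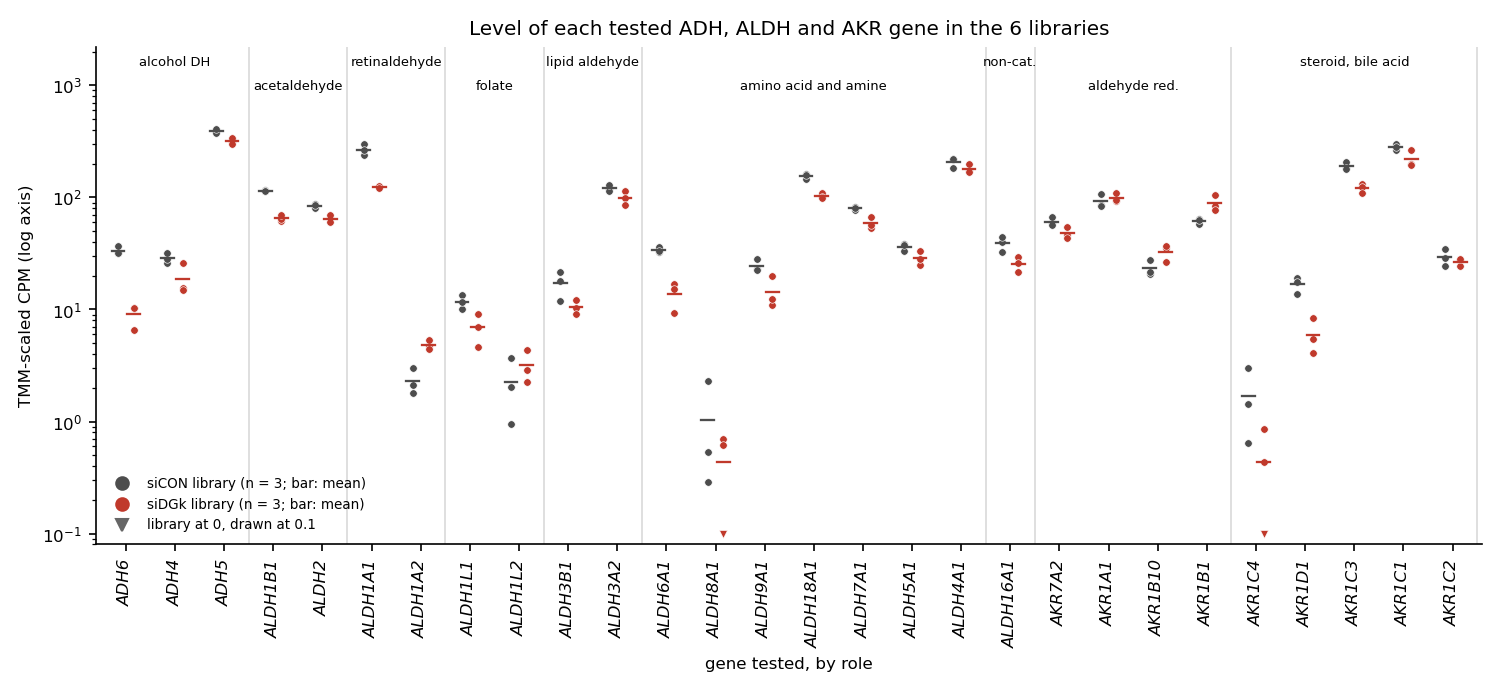
Level of each of the 28 tested members in TMM-scaled CPM on a log axis, grouped by role, with grey points for siCON and red points for siDGk libraries, bars for group means (n = 3) and triangles for libraries at 0. The red points of ADH6, ALDH1A1, ALDH1B1 and AKR1D1 lie below the grey ones, and those of AKR1B1 lie above them.

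**Figure D2:**
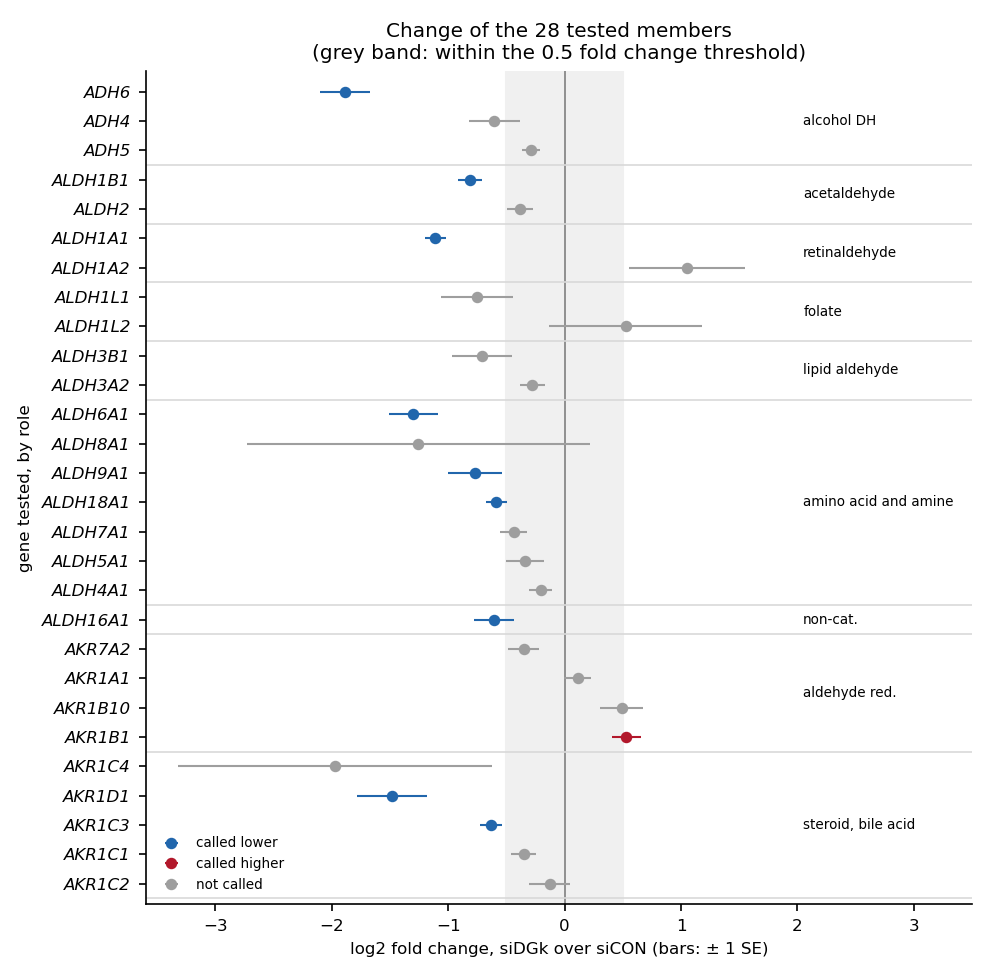
Log2 fold change of siDGk over siCON with 1 standard error on either side for the 28 tested members, grouped by role, blue where called lower, red where called higher and grey where not called. ADH6 lies farthest to the left among the called genes at −1.88, and AKR1B1 at 0.53 is the called gene to the right of 0.

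The sequence before the start site is shown for the 4 members that fell by more than 1 on the log2 scale, for AKR1B1, which rose, and for AKR7A2, which holds a motif searched. Each line gives the 250 bases before a RefSeq start on GRCh38.p14, 5′ to 3′ on the gene's own strand. Capitals mark matches to a motif on either strand.
ADH6 (chr4:99219247-99219496, minus strand): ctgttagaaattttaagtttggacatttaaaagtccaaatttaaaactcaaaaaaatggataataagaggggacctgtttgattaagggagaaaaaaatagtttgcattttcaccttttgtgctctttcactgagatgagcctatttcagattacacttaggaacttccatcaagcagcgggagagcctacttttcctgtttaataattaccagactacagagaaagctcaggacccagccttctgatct
AKR1D1 (chr7:138076209-138076458, plus strand): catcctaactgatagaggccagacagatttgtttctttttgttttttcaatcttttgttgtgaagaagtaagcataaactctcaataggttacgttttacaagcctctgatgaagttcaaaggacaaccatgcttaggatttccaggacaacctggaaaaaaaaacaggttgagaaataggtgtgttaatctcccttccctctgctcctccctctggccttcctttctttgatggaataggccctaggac
ALDH6A1 (chr14:74084454-74084703, minus strand): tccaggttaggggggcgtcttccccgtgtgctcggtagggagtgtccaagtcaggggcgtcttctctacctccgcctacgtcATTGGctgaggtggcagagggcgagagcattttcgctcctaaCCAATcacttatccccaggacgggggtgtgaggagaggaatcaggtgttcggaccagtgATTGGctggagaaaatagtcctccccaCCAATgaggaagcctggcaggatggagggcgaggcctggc
ALDH1A1 (chr9:72953054-72953303, minus strand): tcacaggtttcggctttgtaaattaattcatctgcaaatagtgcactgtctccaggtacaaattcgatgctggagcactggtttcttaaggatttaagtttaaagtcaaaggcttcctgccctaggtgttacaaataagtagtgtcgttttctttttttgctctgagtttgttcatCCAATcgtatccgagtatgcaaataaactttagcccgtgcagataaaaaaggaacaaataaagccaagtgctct
AKR1B1 (chr7:134459101-134459350, minus strand): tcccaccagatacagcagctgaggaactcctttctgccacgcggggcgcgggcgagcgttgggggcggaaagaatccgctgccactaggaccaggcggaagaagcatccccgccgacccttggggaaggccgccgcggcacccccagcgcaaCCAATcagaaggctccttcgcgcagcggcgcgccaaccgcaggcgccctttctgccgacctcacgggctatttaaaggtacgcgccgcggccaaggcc
AKR7A2 (chr1:19312147-19312396, minus strand): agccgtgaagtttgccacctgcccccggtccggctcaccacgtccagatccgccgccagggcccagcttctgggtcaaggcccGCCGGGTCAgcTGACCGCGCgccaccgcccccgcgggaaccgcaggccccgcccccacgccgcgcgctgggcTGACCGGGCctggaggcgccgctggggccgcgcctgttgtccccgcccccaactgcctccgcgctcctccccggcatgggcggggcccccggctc

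RefSeq promoters were at hand for 30 members, 39 promoters in all, and not for ALDH2, ALDH1L2, ALDH3A1, ALDH3B2, ALDH16A1, AKR1B10 and AKR1B15. Motifs were counted on both strands in windows of 300 bases, 250 before and 50 after the start, in these and in all 35116 promoters. TGACNNNGC, a core of the antioxidant response element, stood in 13.3% of all promoters and in those of 1 member, AKR7A2. The AKR7A2 promoter shown holds it at 167, 156 and 95 bases before the start. TGANTCA (7.71% of all promoters), CAAAGTCCA (0.384%), TTGCGCAA (0.151%) and GTTAATNAT (0.792%), which are forms of the AP-1, HNF4, C/EBP and HNF1 elements, stood in 0 member promoters, which says that these letters are not in these windows.

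TATAAA and CCAAT were added after the values were seen. TATAAA was in 10.3% of member promoters and 11.5% of all, held by ADH4, AKR1C3, AKR1C4 and ALDH1L1. CCAAT was in 51.3% of member promoters and 34.6% of all. Its carriers were 17 of 30 member genes, of which 5 were called (14.1% of all genes tested were). They include ADH1A, ADH1B, ADH1C, AKR1E2 and ALDH1A3, which had too few counts to be tested. Promoters of AKR1E2 overlap each other, and those of AKR1C1 and AKR1C2 are nearly the same, so the promoters are not independent. A link of CCAAT to the changes was not tested. ALDH6A1 has CCAAT at 168, 126, 67 and 40 bases before its start, ALDH1A1 at 74 and AKR1B1 at 98. Before the start, no match to one motif overlapped a match to another in the promoters shown. The printed promoters of ADH6, ALDH1A1 and AKR1D1 hold 36.4%, 38.4% and 40.8% G and C, below the median of 58% over all promoters, and those of ALDH6A1 (59.6%) and AKR1B1 (68%) lie above it. A second AKR1B1 promoter, without CCAAT, is at 50.8%. Of other members that fell, ALDH1B1 (70.4%), ALDH18A1 (68.8%) and ALDH9A1 (67.2%) lie above the median and both promoters of AKR1C3 below it (32% and 35.6%). Base composition, too, was looked at after the changes were known.

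ADH6 had the lowest log2 fold change among the called members. It encodes a class V alcohol dehydrogenase, whose substrates are little known. The gene lies at chromosome 4, 99202638 to 99219537, on GRCh38. Its level was 31.8, 31.7 and 36.6 CPM in siCON and 10.3, 10.3 and 6.63 CPM in siDGk replicates 1 to 3. The siCON libraries lay close together, and every siDGk library was far below them. The log2 fold change was −1.88 (SE 0.21, edgeR's test, adjusted p = 3.66e-06), and the call held in all 16 alternatives. The lncRNA ENSG00000246090 overlaps 1.70% of the exons of ADH6 on the other strand, and the counts do not separate strands.

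ADH5 encodes the class III enzyme, which oxidises the glutathione adduct of formaldehyde in nearly every cell type, and ADH4 the class II enzyme of liver, which acts on ethanol and retinol. ADH5 was 384, 377 and 404 CPM in siCON and 313, 342 and 297 CPM in siDGk replicates 1 to 3. The groups did not overlap, but the gap was small beside the level. At −0.29 (SE 0.08, edgeR's test, adjusted p = 0.0117) the log2 fold change of ADH5 was short of the threshold. Of the 50-base words of its transcript, 13.8% recur in other genes, mostly the copy ADH5P4, so some of its reads may be left out of the counts. ADH4 was 25.9, 28.0 and 31.7 CPM in siCON and 15.6, 25.9 and 14.9 CPM in siDGk replicates 1 to 3. The siDGk replicate 2 library sat among the control values, and the other siDGk libraries lay below them. ADH4 was not called (log2 fold change −0.60, SE 0.22, edgeR's test, adjusted p = 0.0596). It was called in 4 alternatives, at −0.90 without siDGk replicate 2, −0.64 with replicate number as a block, −0.60 without a count filter and −0.61 with a mean CPM above 10. Over all its alternatives the adjusted p of edgeR or DESeq2 ran from 0.00538 to 0.212.

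The class I genes ADH1A, ADH1B and ADH1C encode the main ethanol-oxidising enzymes of adult liver, and none of them had enough counts to be tested. They share a cluster on chromosome 4, where ADH5, ADH4, ADH6, ADH1A, ADH1B and ADH1C follow each other on the minus strand with 14.0 to 56.8 kb between neighbours. ADH1A had 25 counts in siCON replicate 1, 1 count in siCON replicate 3 and 0 in the other libraries. ADH1B had 3 counts in siDGk replicate 2 and 0 elsewhere, and ADH1C had 0 counts in all 6 libraries. A count of 0 allows up to 0.138 to 0.286 CPM, depending on the library, with counting error alone considered.

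ALDH2 and ALDH1B1 are mitochondrial enzymes that oxidise acetaldehyde, ALDH2 with the higher affinity. ALDH1B1 (chromosome 9, 38392702 to 38398661) was 117, 115 and 113 CPM in siCON and 61.9, 64.5 and 69.6 CPM in siDGk replicates 1 to 3. The spread within each group was a small fraction of the distance between them. Its log2 fold change was −0.81 (SE 0.10, edgeR's test, adjusted p = 1.11e-05). ALDH2 was 80.2, 87.4 and 86.3 CPM in siCON and 64.9, 60.4 and 69.2 CPM in siDGk replicates 1 to 3. Each siDGk value was below each siCON value, with a smaller gap than for ALDH1B1. Its log2 fold change of −0.38 (SE 0.11, edgeR's test, adjusted p = 0.0181) passed on the adjusted p but not on the fold change threshold. Another annotated gene on the same strand, ENSG00000257767, covers 6.99% of the exons of ALDH2 and was not in the count table.

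Partner genes of alcohol, acetate and polyol metabolism gave 4 lower calls among 12 tested by edgeR's test (6.68% of all genes tested), with a median log2 fold change of −0.44 (0.02 over all genes tested). The acetyl-CoA synthetases that use acetate were called in both compartments. Cytosolic ACSS2 fell from 175 ± 15.6 to 88.8 ± 4.57 CPM (SD, n = 3). Mitochondrial ACSS1 fell from 15.0 ± 0.823 to 8.91 ± 1.82 CPM (SD, n = 3). The ACSS1 call was lost without any 1 library other than siDGk replicate 3, at log2 fold changes between −0.77 and −0.62. MAOA, which makes aldehydes from amines, fell by 1.42 and KHK, which phosphorylates fructose, fell by 0.80 on the log2 scale.

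Retinaldehyde dehydrogenases catalyse the irreversible step from retinal to retinoic acid. With every annotated exon counted as length, ALDH1A1 (chromosome 9, 72900671 to 73080442) had the highest level per length of all members in siCON cells. In CPM without regard to length, ADH5 (mean 389) and AKR1C1 (mean 281) stood above ALDH1A1 (mean 267) in siCON cells. ALDH1A1 was 298, 238 and 267 CPM in siCON and 123, 127 and 122 CPM in siDGk replicates 1 to 3. The siDGk libraries were nearly equal, and the siCON libraries were spread well above them. The log2 fold change was −1.11 (SE 0.09, edgeR's test, adjusted p = 6.76e-08). ALDH1A2 was 2.14, 2.98 and 1.81 CPM in siCON and 4.75, 4.43 and 5.29 CPM in siDGk replicates 1 to 3. Its siDGk libraries were all above the siCON libraries, at a very low level, and the test did not call it (log2 fold change 1.05, SE 0.50, edgeR's test, adjusted p = 0.162). ALDH1A3 had 13 and 5 counts in siDGk replicates 1 and 2 and 0 in the other libraries, and was not tested.

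Other genes of retinoid handling were called in both directions. Their list was shortened after its values were seen, so its counts and median do not stand for all retinoid genes. Of 11 tested, 2 were called higher and 2 lower by edgeR's test (7.42% and 6.68% of all genes tested), with a median log2 fold change of −0.15. CRABP2, which carries retinoic acid to the nucleus, rose from 3.20 ± 0.470 to 19.9 ± 2.14 CPM (SD, n = 3). RDH10, which oxidises retinol to the retinal that ALDH1A enzymes use, rose from 38.1 ± 4.15 to 98.0 ± 4.41 CPM (SD, n = 3). RBP4, the plasma carrier of retinol, fell from 368 ± 3.26 to 167 ± 11.4 CPM (SD, n = 3). RDH11, a retinal reductase, fell by 1.12 on the log2 scale.

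Aldehyde dehydrogenases of amino acid and amine metabolism had negative log2 fold changes in all tested genes with all libraries in the fit, with 3 of 7 called lower by edgeR's test and a median of −0.59. Of all genes tested 48.5% had negative values and 6.68% were called lower. ALDH6A1, the mitochondrial methylmalonate semialdehyde dehydrogenase of valine and thymine breakdown, was 32.7, 35.9 and 33.5 CPM in siCON and 16.9, 15.4 and 9.34 CPM in siDGk replicates 1 to 3. The siDGk values were more spread than the siCON values and all far below them. The log2 fold change was −1.30 (SE 0.21, edgeR's test, adjusted p = 2.15e-04). On the opposite strand BBOF1 covers 10.0% of its exons, and reads there cannot be assigned to a strand. BBOF1 itself averaged 4.81 CPM in siCON and 3.05 CPM in siDGk libraries.

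Proline metabolism holds a pair of members that act around pyrroline carboxylate. ALDH18A1 makes it from glutamate, and was 161, 146 and 159 CPM in siCON and 110.4, 100.3 and 99.5 CPM in siDGk replicates 1 to 3. The groups were well separated, and the gene was called (log2 fold change −0.59, SE 0.09, edgeR's test, adjusted p = 1.38e-04). ALDH4A1 oxidises it to glutamate, and was 182, 220.1 and 222 CPM in siCON and 173, 200.4 and 169 CPM in siDGk replicates 1 to 3. Here the groups overlapped, since siDGk replicate 2 exceeded siCON replicate 1. ALDH4A1 was not called (log2 fold change −0.20, SE 0.10, edgeR's test, adjusted p = 0.163). A difference between these members was not tested.

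ALDH9A1 oxidises trimethylaminobutyraldehyde on the way to carnitine. It was 23.1, 28.2 and 22.5 CPM in siCON and 10.9, 12.3 and 20.1 CPM in siDGk replicates 1 to 3. The groups did not overlap, but siDGk replicate 3 came close to the control range. The call (log2 fold change −0.77, SE 0.23, edgeR's test, adjusted p = 0.0259) was lost when any 1 library other than siDGk replicate 3 was left out. In those fits the log2 fold change lay between −0.83 and −0.62 and the adjusted p of edgeR ran from 0.0510 to 0.124, and over all its alternatives from 0.00211 to 0.124. Without siDGk replicate 3 the log2 fold change was −1.10.

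ALDH7A1, which acts in lysine breakdown, was 81.5, 76.6 and 81.2 CPM in siCON and 53.5, 56.4 and 66.6 CPM in siDGk replicates 1 to 3. The siDGk libraries were all below the siCON libraries, with replicate 3 the nearest. At −0.44 (SE 0.12, edgeR's test, adjusted p = 0.0126) the log2 fold change missed the threshold, and without siDGk replicate 3 it passed at −0.55. The copy ALDH7A1P1 shares 7.42% of the 50-base words of ALDH7A1. ALDH5A1, the succinic semialdehyde dehydrogenase of GABA breakdown, had a log2 fold change of −0.34 (SE 0.16) and was not called. ALDH8A1, an enzyme of the kynurenine pathway, ran from 0.286 to 2.30 CPM in siCON and from 0 to 0.702 CPM in siDGk libraries, and was not called (log2 fold change −1.26, SE 1.48, or 0.08 without siCON replicate 1).

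Partner enzymes of these amino acid and folate pathways were called at a share near that of all genes tested (14.1%). Of 21 tested, 2 were called lower and 1 higher by edgeR's test, with a median log2 fold change of −0.17. On the adjusted p of edgeR alone, 6 of the 21 were under 0.05, against 19.7% of all genes tested. For 8 of the 21 all siDGk libraries lay below all siCON libraries, and for 5 above them (17.3% and 18.7% of all genes tested). PRODH2, a hydroxyproline dehydrogenase, fell from 35.9 ± 13.4 to 11.0 ± 1.38 CPM (SD, n = 3), and FTCD, which links histidine breakdown to folate, from 87.4 ± 18.3 to 39.7 ± 5.19 CPM (SD, n = 3). MTHFD1L, a mitochondrial formate-producing enzyme, rose from 62.8 ± 5.84 to 95.7 ± 6.10 CPM (SD, n = 3).

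The folate enzymes ALDH1L1 and ALDH1L2 oxidise formyltetrahydrofolate in the cytosol and in mitochondria. ALDH1L1 ran from 10.1 to 13.4 CPM in siCON and from 4.65 to 9.19 CPM in siDGk libraries, and was not called (log2 fold change −0.76, SE 0.31, edgeR's test, adjusted p = 0.101). ALDH1L2 ran from 0.959 to 3.72 CPM and from 2.27 to 4.37 CPM and was not called either (log2 fold change 0.52, SE 0.66, edgeR's test, adjusted p = 0.666). Its log2 fold change was 0.16 without siCON replicate 2 and 1.09 without siCON replicate 3. Among enzymes of lipid aldehydes, ALDH3A2, the microsomal fatty aldehyde dehydrogenase, ran from 114 to 129.7 CPM in siCON and from 85.7 to 114 CPM in siDGk libraries, with the nearest libraries of the groups almost equal, and was not called (log2 fold change −0.28). ALDH3B1, which acts on medium- and long-chain aldehydes, had a log2 fold change of −0.71 and was not called, but was called at −0.92 without siCON replicate 1 and at −0.72 with a mean CPM above 10. ALDH3A1, an enzyme of cornea and of some tumours, had at most 18 counts in a library, and ALDH3B2 had 0 in all 6.

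ALDH16A1 carries the family's fold but lacks the catalytic cysteine in mammals. It was 32.9, 40.0 and 44.6 CPM in siCON and 29.6, 21.5 and 25.9 CPM in siDGk replicates 1 to 3. The highest siDGk library was just under the lowest siCON library. The call (log2 fold change −0.61, SE 0.17, edgeR's test, adjusted p = 0.0187) was lost when siCON replicate 2 or 3 or siDGk replicate 2 was left out, at log2 fold changes of −0.59, −0.50 and −0.49. Over its alternatives the adjusted p of edgeR or DESeq2 ran from 0.00755 to 0.119. ENSG00000269469, on the same strand and not in the count table, covers 7.34% of the exons of ALDH16A1. PIH1D1 on the other strand shares 3.31% of these exons and was at 130.1 CPM on average in siCON cells, so part of the ALDH16A1 count is uncertain.

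Aldo-keto reductases that reduce aldehydes held the higher call. AKR1B1 (chromosome 7, 134442356 to 134459284) encodes aldose reductase, which turns glucose into sorbitol and also clears lipid aldehydes. It was 64.1, 58.1 and 62.8 CPM in siCON and 84.5, 77.0 and 105 CPM in siDGk replicates 1 to 3. All siDGk libraries exceeded all siCON libraries, with replicate 3 the farthest. The log2 fold change was 0.53 (SE 0.12, edgeR's test, adjusted p = 0.00503), close to the threshold. It was under the threshold without siDGk replicate 3, at 0.38, without siCON replicate 2, at 0.49, and with DESeq2's shrunken fold changes, at 0.49.

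AKR1B10, a reductase of retinal and lipid aldehydes known for high levels in liver tumours, was 20.8, 21.8 and 27.8 CPM in siCON and 35.5, 36.6 and 26.6 CPM in siDGk replicates 1 to 3. The siDGk replicate 3 library lay within the control range. AKR1B10 was not called (log2 fold change 0.49, SE 0.19, edgeR's test, adjusted p = 0.0737), and without siDGk replicate 3 it was called at 0.62. It lies 68.3 kb from AKR1B1 and 7.70 kb from AKR1B15, which had 0 to 18 counts. AKR1B15 shares 11.3% of the 50-base words of AKR1B10.

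AKR1A1, the general aldehyde reductase, was 84.9, 83.7 and 108 CPM in siCON and 93.7, 95.3 and 109.8 CPM in siDGk replicates 1 to 3. The groups overlapped, and the log2 fold change was 0.11 (SE 0.12), or 0.03 without siDGk replicate 3 and 0.24 without siCON replicate 3. AKR7A2, which reduces succinic semialdehyde and aflatoxin dialdehyde, ran from 56.5 to 66.9 CPM in siCON and from 43.1 to 54.1 CPM in siDGk libraries. AKR7A2 was not called (log2 fold change −0.35, SE 0.13, edgeR's test, adjusted p = 0.0713). Its paralog AKR7A3 had 4 counts in siCON replicate 3 and 0 in the other libraries, and AKR1E2, an anhydrofructose reductase, had 0 counts in all 6.

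Other carbonyl reductases and NRF2 target genes were read beside the AKR genes. Of 14 other carbonyl reductases tested, 1 was called by edgeR's test (14.1% of all genes tested), with a median log2 fold change of −0.17. The gene was VAT1, which rose from 485 ± 20.9 to 713 ± 19.2 CPM (SD, n = 3). NRF2 is the regulator through which several AKR genes are known to respond to electrophiles. The list of NRF2 targets was shortened after its values were seen, so its counts and median do not stand for all targets. Of 21 tested NRF2 targets outside the AKR family, 1 was called higher and 2 lower by edgeR's test, with a median log2 fold change of 0.10, a share of calls near the 14.1% of all genes tested. The adjusted p of edgeR alone was under 0.05 for 8 of these 21 targets, against 19.7% of all genes tested. The cystine carrier SLC7A11 rose by 1.30 on the log2 scale. HMOX1, which breaks down haem, fell by 1.09 and OSGIN1 fell by 0.69 on the log2 scale. Among the 7 genes of NRF2 and its regulators (median 0.07), 1 was called (14.1% of all genes tested), the small MAF protein gene MAFF, at a log2 fold change of 0.56. It was at 0.45 without siCON replicate 1 and at 0.44 without siDGk replicate 3, both under the threshold.

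Reductases of steroids and bile acid precursors had negative log2 fold changes in all 5 tested genes with all libraries in the fit, with 2 called lower by edgeR's test (6.68% of all genes tested were, and 48.5% had negative values) and a median of −0.64. AKR1D1 (chromosome 7, 138002324 to 138118305) is the beta-reductase that saturates the steroid A ring in bile acid synthesis and in the breakdown of steroid hormones. It was 19.0, 13.7 and 17.6 CPM in siCON and 5.40, 4.06 and 8.42 CPM in siDGk replicates 1 to 3. The groups did not overlap, and the highest siDGk library was well below the lowest siCON library. The log2 fold change was −1.48 (SE 0.30, edgeR's test, adjusted p = 0.00130), and the call held in all 16 alternatives, between −1.83 and −1.08.

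The AKR1C genes form a cluster on chromosome 10. AKR1C3, which reduces androgen and prostaglandin precursors, was 207, 181 and 179.9 CPM in siCON and 132, 124 and 109.8 CPM in siDGk replicates 1 to 3. The groups were clearly apart, and the log2 fold change was −0.64 (SE 0.10, edgeR's test, adjusted p = 8.45e-05). AKR1C1, which inactivates progesterone, was 298, 267 and 279 CPM in siCON and 265, 201 and 195 CPM in siDGk replicates 1 to 3. The siDGk replicate 1 library was just below the lowest control library, and the other siDGk libraries lay lower. At −0.35 (SE 0.10, edgeR's test, adjusted p = 0.0214) AKR1C1 missed the fold change threshold, and without siDGk replicate 1 it was called at −0.53. AKR1C2, which inactivates dihydrotestosterone, ran from 24.3 to 34.5 CPM in siCON and from 24.4 to 28.3 CPM in siDGk libraries and was not called at −0.13, a sign that turned without siCON replicate 1 (0.01). AKR1C4, the liver member of the group, ran from 0.641 to 2.98 CPM and from 0 to 0.862 CPM and was not called. These genes are near copies, and 47.3% of the 50-base words of AKR1C2, 22.7% of AKR1C1, 18.6% of AKR1C3 and 14.2% of AKR1C4 recur in other genes. Reads that align to several genes were left out, so the levels of AKR1C genes are uncertain.

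Genes of bile acid synthesis and steroid reduction around AKR1D1 had a median log2 fold change of −0.49. Of 14 tested, 6 were called lower and 1 higher by edgeR's test (6.68% and 7.42% of all genes tested). The steroid dehydrogenase HSD17B6 fell from 2.97 ± 0.706 to 0.162 ± 0.281 CPM (SD, n = 3), near the limit of counting, and its call was lost without each siCON library and without siDGk replicate 2 (adjusted p of edgeR 0.0524 to 0.119). Its log2 fold change was −4.14, or −8.69 without siDGk replicate 1 and −0.74 with DESeq2's shrunken fold changes. With so few counts its size is uncertain. HSD17B2, which inactivates sex steroids, fell by 1.15 and ACOX2, which shortens the bile acid side chain in peroxisomes, fell by 1.12 on the log2 scale. The peroxisomal HSD17B4, at the next step, fell from 101 ± 6.19 to 49.1 ± 3.62 CPM (SD, n = 3). SRD5A1, a steroid alpha-reductase and the higher call, was named after its values were seen and rose from 8.40 ± 2.68 to 17.1 ± 2.04 CPM (SD, n = 3).

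**Figure D3:**
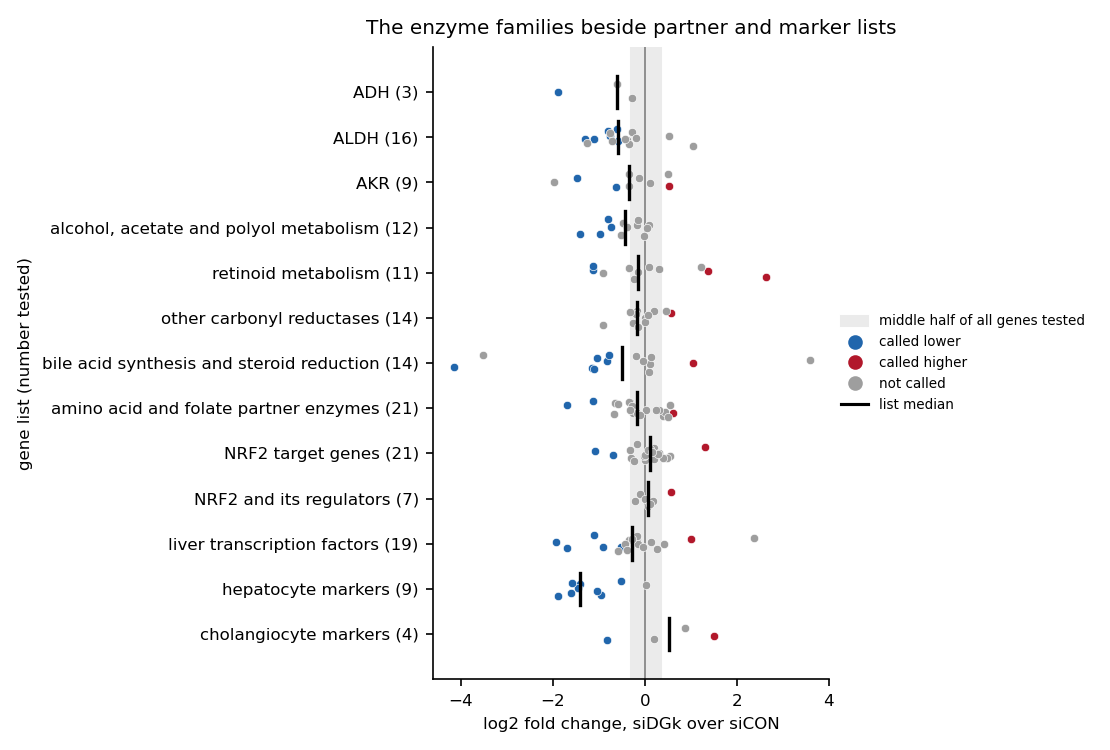
Log2 fold change of siDGk over siCON for each tested gene of the 3 enzyme families, the partner lists and the hepatocyte and cholangiocyte markers, blue where called lower, red where called higher and grey where not called, with a black bar for each list's median and a band for the middle part of all genes tested. Medians lie left of the band, which starts at −0.31, for ADH (−0.60), ALDH (−0.60) and AKR genes (−0.35) and hepatocyte markers (−1.41). So do those of alcohol, acetate and polyol genes (−0.44) and of bile acid and steroid genes (−0.49). The cholangiocyte markers have one right of the band (0.53). The NRF2 targets (0.10) and the retinoid genes (−0.15), lists shortened after their values were seen, have medians within it.

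Per length of exon, a few genes carried most of the signal. Summed over the 37 members, the level was 569.8, 550.3 and 579 CPM per kb in siCON and 419, 428 and 404 CPM per kb in siDGk replicates 1 to 3. Every siDGk library was below every siCON library, and the siDGk mean was 73.6% of the siCON mean. The ALDH sum stood at 63.1%, the ADH sum at 75.5% and the AKR sum at 88.7% of the siCON mean. Within AKR, the aldehyde reductases summed to 94.2 ± 5.01 and 102 ± 2.11 CPM per kb (SD, n = 3) in siCON and siDGk cells. The steroid and bile acid enzymes summed to 91.1 ± 6.40 and 62.7 ± 6.79 CPM per kb (SD, n = 3). The aldehyde reductase sums overlapped between groups, and those of the steroid and bile acid enzymes did not.

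In siCON cells the order by level per length was ALDH1A1 (94.2 ± 10.6), ADH5 (79.9 ± 2.88), ALDH4A1 (57.3 ± 6.24), AKR1C3 (48.4 ± 3.91) and ALDH18A1 (41.3 ± 2.17 CPM per kb, SD, n = 3). In siDGk cells ADH5 (65.3 ± 4.73) came before ALDH4A1 (49.7 ± 4.75) and ALDH1A1 (43.6 ± 0.904 CPM per kb, SD, n = 3). The library ranges of ALDH1A1 and ADH5 did not overlap but lay next to each other in siCON cells, and those of ALDH4A1 and AKR1C3 overlapped. In siDGk cells the ranges of ADH5, ALDH4A1 and ALDH1A1 did not overlap. The share of ALDH1A1 in the sum was 15.2% to 18.4% in siCON and 10.3% to 10.6% in siDGk libraries. The share of AKR1B1 was 2.89% to 3.08% in siCON and 4.92% to 7.11% in siDGk libraries. The 5 genes of highest level in each condition, with AKR1A1 in place of ALDH18A1 in siDGk cells, held 56.7% of the sum in siCON and 53.1% in siDGk cells. Exon lengths count every annotated exon, so a level per length also depends on the annotation. AKR1C3, for example, has 3911 bases of annotated exon but 1137 words of 50 bases in its main transcript. The order of the highest genes, ALDH1A1 first included, can therefore change with the length used.

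**Figure D4:**
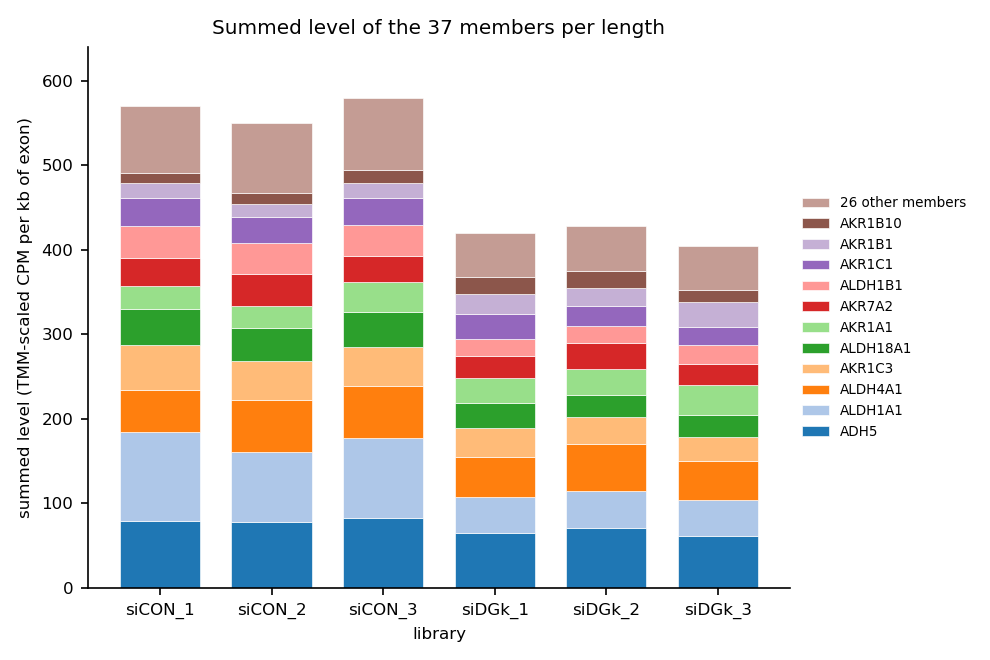
Summed level of the 37 members in each library in TMM-scaled CPM per kb of exon, with the 11 genes of highest mean level stacked from the bottom and the others on top. The siDGk bars end at 404 to 428, below the siCON bars at 550.3 to 579, and the ALDH1A1 segment shrinks from a mean of 94.2 to 43.6.

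**Figure D5:**
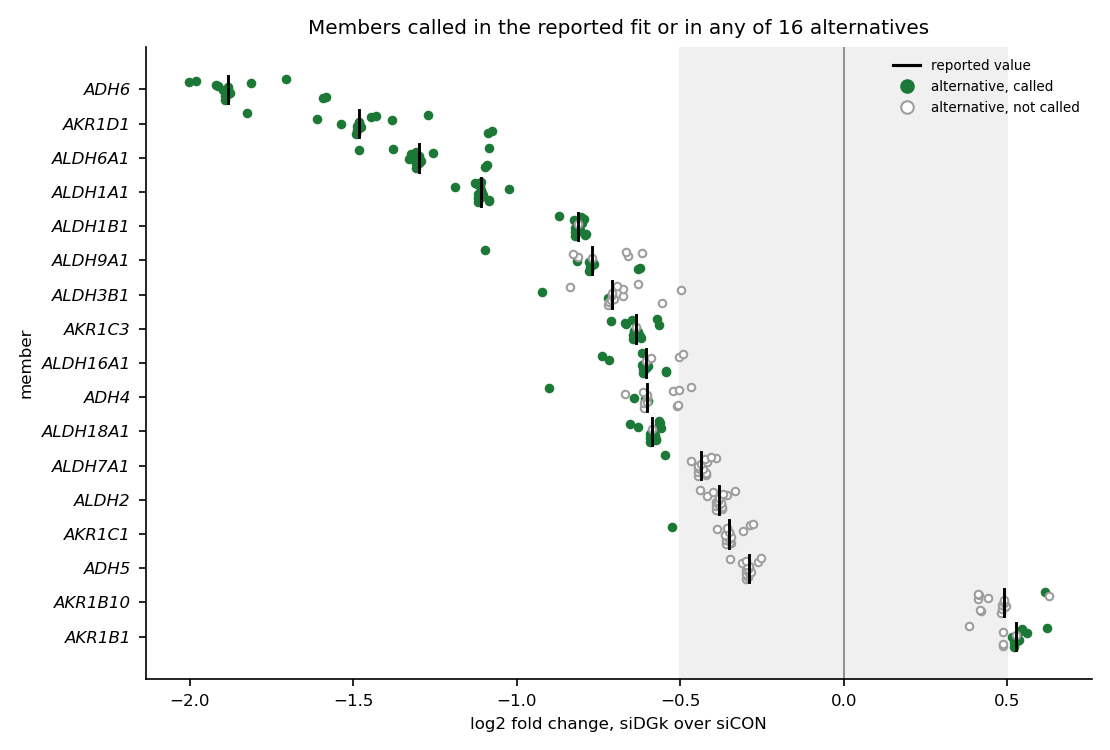
Log2 fold change of each member called in the fit on all libraries or in an alternative, with a black line for the reported value, filled green circles for alternatives in which it was called, open circles for those in which it was not, and a grey band within the threshold of 0.5. ADH6, AKR1D1, ALDH6A1 and ALDH1A1 are called throughout, and AKR1B1 reaches down to 0.38, inside the band.

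Marker genes were read beside these results. Of 9 hepatocyte markers, all tested and all above 0 in every library, 8 were called lower by edgeR's test (6.68% of all genes tested), with a median log2 fold change of −1.41. FGB (−1.90), TTR (−1.61), ALB (−1.58) and APOB (−1.46) had the lowest log2 fold changes, and SERPINA1 was at 0.02. Their summed level, led by ALB, was 52875, 47121 and 46127 CPM in siCON and 27418, 23922 and 22503 CPM in siDGk replicates 1 to 3. Of 19 tested liver transcription factors, 5 were called lower and 1 higher by edgeR's test (6.68% and 7.42% of all genes tested), with a median log2 fold change of −0.28. Among the called factors, ONECUT1 (−1.94), NR1H4 (−1.69), CEBPA (−1.12) and NR1I2 (0.99) had the log2 fold changes of largest size. The other lower calls, FOXA1 (−0.91) and HNF4A (−0.51), were named after their values were seen, and HNF4A was at −0.47 without siCON replicate 1 and −0.47 without siDGk replicate 3, under the threshold. Their part in the changes of the ADH, ALDH and AKR genes was not tested.

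Of 4 cholangiocyte markers, KRT19 was called higher at a log2 fold change of 1.51 and EPCAM lower at −0.82 by edgeR's test (7.42% and 6.68% of all genes tested). Their sum, led by KRT19, was 1237, 1466 and 1493 CPM in siCON and 2699.8, 2906 and 3104 CPM in siDGk replicates 1 to 3. Of 6 stellate cell and fibroblast markers, 4 were tested, and DCN was at 0 in all siCON libraries. By edgeR's test 1 was called higher and 1 lower (7.42% and 6.68% of all genes tested). COL1A1 rose from 1.17 ± 0.752 to 19.4 ± 1.75 CPM (SD, n = 3), while PDGFRB fell by 1.02 on the log2 scale, a call lost without any 1 library other than siDGk replicate 2 (log2 fold changes between −1.13 and −0.81). The sum over this list was 44.2, 41.6 and 36.5 CPM in siCON and 70.0, 76.2 and 47.5 CPM in siDGk replicates 1 to 3. ACTA2, its largest part, was not called (−0.18). COL1A1 was higher in all 3 siDGk libraries, while COL1A2 (tested and not called) and COL3A1 (not tested) were higher mainly in siDGk replicates 1 and 2.

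Of 5 endothelial markers, 3 were tested and 0 called by edgeR's test (14.1% of all genes tested) or by DESeq2. The unadjusted p of edgeR was under 0.05 for 2 of them, and KDR was at 0 in all siCON libraries. Their sum, led by VWF, was 1.66, 1.39 and 2.29 CPM in siCON and 4.48, 58.5 and 4.05 CPM in siDGk replicates 1 to 3. The siDGk replicate 2 library was far above the others. Of 6 leukocyte markers 0 were called by edgeR's test (14.1% of all genes tested) or by DESeq2, with 0 at an unadjusted p under 0.05. Their sum, led by LYZ, was 1614, 1703 and 1705 CPM in siCON and 1902, 1758 and 1769 CPM in siDGk replicates 1 to 3, and CD68, CD14 and CD3E were each at 0 in at least 1 library. The part of other cell types in the changes of the members was not tested.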

How the data were processed

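Bulk RNA-seq of 6 HepG2 libraries was used. The authors removed tRNA, rRNA, adapter and spike-in reads, aligned the rest to GRCh38 with STAR 2.6.1, removed low-complexity reads, and counted genes with featureCounts 1.6.5 with a minimum quality and otherwise default settings, which ignore strand and drop reads with several alignments. The deposited values are raw counts per gene, a count being a read or read pair. Of 34036 genes listed, 24670 had a count, and 14476 passed edgeR's filterByExpr (minimum count 10) and were tested.

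Genes were compared with edgeR 4.0.16 in R 4.3.3 (TMM, robust quasi-likelihood fit on condition alone, p adjusted by Benjamini-Hochberg over all genes tested). CPM is scaled by TMM. A level per length divides it by the union of exons in a Gencode annotation of GRCh38. Replicate pairs within a group differed by 10.7 to 25.7 times counting noise (chi-square per degree of freedom). This value is taken over all genes together, where genes with many counts weigh most. The part of counting error in the spread of single members was not computed, and it may be large for some. The 16 alternatives were DESeq2 1.42.0 (plain or shrunken fold changes), other scalings, filters and thresholds, a replicate block, and each library left out.

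Members and lists were chosen with earlier results of these data known. The retinoid and NRF2 target lists were shortened after their values were seen, so their counts and medians do not cover every gene of these pathways. Every member is named, with values in every library for those with adjusted p under 0.05 in edgeR or among the 5 of highest level per length. Of each list the called genes are named, or the 4 of largest absolute log2 fold change. Other genes were chosen after their values were seen. Shared words are runs of 50 bases of each gene's main transcript that recur in transcripts of other genes.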

Additional observations from a re-analysis of the deposited data

How the results depend on the processing

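Of the 10 called members, ADH6, AKR1D1, ALDH6A1 and ALDH1A1 kept their call in all 16 alternatives, and 7 kept it without each library. DESeq2, RLE and upper-quartile scaling kept all 10 calls. DESeq2's shrunken fold changes called 0 members higher and 9 lower, with 1979 genes called in all. With a mean TPM above 10 as well, 0 members were called higher and 9 lower, with 1328 genes called in all. At a log2 threshold of 1, 819 genes and 4 members were called, 4 lower and 0 higher; fewer pass by construction. Leaving out 1 library gave 1704 to 1935 genes called, 7 to 11 members called, 0 to 1 higher and 7 to 10 lower, and a DGUOK log2 fold change between −2.72 and −2.42. Across fits without 1 library the log2 fold change of AKR1C2 ran from −0.2369 to 0.0146 and that of ALDH8A1 from −1.7825 to 0.0808, both turning positive without siCON replicate 1, and the cause was not tested. With the replicate block 2077 genes were called, 1 member higher and 10 lower, although replicates of the same number did not deviate together (correlations across genes 0.024, 0.0166 and −0.0022), so pairing has no basis in these values. Without a count filter 34 members were tested, and 10 were called lower and 1 higher. Of all 24670 genes tested in that fit 987 were called lower and 1185 higher, and the median log2 fold change of all genes shifted by 0.127. With 3 libraries a group and 10527216 counts in the smallest, members with few counts, such as ALDH8A1 and AKR1C4, carry wide errors.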
